A study of Mus musculus with 12 samples.

Results

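The proteasome genes of mouse liver were followed through genetic and drug activation of the transcription factor Nrf2. The set comprised every gene whose symbol begins with Psma to Psmg followed by a digit and that had an array probe set naming it alone, 49 of 18193 genes. Of these, 47 were bright enough to be tested, among 8338 genes in all. Psma8, a testis-type core subunit, and Psmc3ip did not pass. By role the 49 were 7 alpha and 7 constitutive beta subunits of the core, 4 members of the immunoproteasome group (Psmb8, Psmb9, Psmb10 and Psme1), 2 tissue-restricted core subunits, 6 ATPases and 11 other subunits of the 19S regulator, 3 other regulators of the core, 7 assembly factors and 2 genes that share the symbol pattern without being subunits (Psmc3ip and Psme3ip1). Psme2, the partner of Psme1, was named only by a probe set shared with Psme2b and was not evaluated.

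Liver RNA came from 12 male C57Bl/6J mice aged 9 weeks, with 1 Affymetrix array per liver and 3 mice in each of 4 groups. Conditional Keap1 knockout mice (CKO) had the genotype Albumin-Cre:Keap1(flox/-). Their controls, labelled wild type (WT), were Albumin-Cre:Keap1(flox/+), so all 4 groups carry a floxed allele and a Cre that the albumin promoter drives in hepatocytes, and WT is not an unmodified Keap1 locus. Each genotype received 1 gavage of vehicle (Cremophor-EL, DMSO and PBS) or of CDDO-Im, a synthetic triterpenoid activator of Nrf2, at 30 umol per kg, and livers were taken 6 h later. CKO thus reports a lasting loss of Keap1, the adaptor that sends Nrf2 to degradation, and CDDO-Im an acute exposure. The minus allele of CKO does not depend on Cre, so by genotype CKO and WT also differ at Keap1 in cells other than hepatocytes.

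The proteasome degrades proteins tagged with ubiquitin. Its core is a barrel in which rings of alpha subunits gate an inner chamber formed by beta subunits, and the 19S regulator at the barrel's ends binds ubiquitin chains, removes them and threads the unfolded substrate inward with a ring of ATPases. Interferon signalling can exchange the catalytic subunits Psmb5, Psmb6 and Psmb7 for Psmb8, Psmb9 and Psmb10, giving the immunoproteasome that trims peptides for presentation by class I molecules, and Psme1 with Psme2 forms an activator cap that is induced with them. Nrf2 has been linked to expression of core subunits through antioxidant response elements, while the related factor Nfe2l1 drives the whole set when proteasome activity is impaired.

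Promoter sequence is shown for 4 of the 6 genes that passed a test in any comparison, Psmb5 and Psmd5 as the strongest rises and Psmb8 and Psmb9 as the largest falls. These genes and the motifs were chosen after the values had been seen. The windows are RefSeq's upstream sequence on GRCm38.p6, 5′ to 3′ on the gene's strand, and end at the base before the annotated start. Capitals mark a match to TGACNNNGC (the core of the antioxidant response element), TGAGTCA (an activator protein 1 site), the core of an interferon-stimulated response element or TTCNNNGAA (a gamma-activated site), each searched on both strands. The windows are Psmb5 at chr14:54617996-54618245 on the minus strand, Psmd5 at chr2:34870963-34871212 on the minus strand, Psmb8 at chr17:34197945-34198194 on the plus strand and Psmb9 at chr17:34187331-34187555 on the minus strand, where it was cut to 225 bases at the neighbouring gene Tap1.
Psmb5: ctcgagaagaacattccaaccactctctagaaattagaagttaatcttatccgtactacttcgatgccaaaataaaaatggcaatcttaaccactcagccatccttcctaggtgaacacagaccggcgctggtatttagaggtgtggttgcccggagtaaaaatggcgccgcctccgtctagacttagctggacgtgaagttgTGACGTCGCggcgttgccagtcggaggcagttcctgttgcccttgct
Psmd5: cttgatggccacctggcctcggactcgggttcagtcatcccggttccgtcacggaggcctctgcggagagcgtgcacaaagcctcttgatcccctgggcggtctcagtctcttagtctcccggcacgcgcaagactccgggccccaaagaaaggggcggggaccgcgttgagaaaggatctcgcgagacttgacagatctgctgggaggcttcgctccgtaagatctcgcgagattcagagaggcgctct
Psmb8: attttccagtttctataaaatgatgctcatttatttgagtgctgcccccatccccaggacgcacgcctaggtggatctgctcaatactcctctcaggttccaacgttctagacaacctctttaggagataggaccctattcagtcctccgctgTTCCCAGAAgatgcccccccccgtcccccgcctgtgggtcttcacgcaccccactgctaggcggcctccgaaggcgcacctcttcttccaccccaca
Psmb9: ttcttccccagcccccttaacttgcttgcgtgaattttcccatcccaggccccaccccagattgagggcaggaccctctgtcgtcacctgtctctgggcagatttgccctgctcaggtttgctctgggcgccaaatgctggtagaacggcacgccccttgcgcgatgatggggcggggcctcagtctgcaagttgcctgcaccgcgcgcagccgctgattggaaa

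Psmb5 held TGACGTCGC, a match to the antioxidant response element core that begins 47 bases before the start. Psmb8 held TTCCCAGAA, a gamma-activated site motif that reads the same way on both strands and begins 97 bases before the start. None of these letters were found in the windows of Psmd5 and Psmb9, nor in those of Psmb10 and Psmf1, the other genes that passed a test. Such matches are frequent. Of 32851 RefSeq windows of 250 bases, 10.2% held TGACNNNGC, 4.46% TGAGTCA, 2.98% the interferon-stimulated core and 7.02% TTCNNNGAA. Among the 44 windows of the 41 members with an entry the corresponding counts were 5, 1, 3 and 2, and the 5 with TGACNNNGC belonged to Psmb5, Psmb6, Psmc6, Psmd9 and Psmd12.

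All values below are log2 signals, a difference of 1 being a doubling, and changes are given with limma's standard error. A gene is said to have risen or fallen where its Benjamini-Hochberg adjusted p over the 8338 tested genes was under 0.05. In the check of the labels, 1 Keap1 probe set read 7.92 to 8.89 in the 6 WT livers and 2.74 to 3.31 in the 6 CKO livers, while the other read 6.58 to 8.08 and 6.15 to 6.51; which of them lies in the deleted part is not known here. A reference list of 16 genes held 14 targets of Nrf2 together with Keap1 and Nfe2l2, which encodes Nrf2. Keap1 was read there from its brighter probe set by mean, the one with 6.15 to 6.51 in CKO livers, and was not called under deletion with vehicle. In this list 11 rose and 1, Nfe2l2, fell (-0.76 ± 0.14, adjusted p = 0.0102) with Keap1 deletion under vehicle, beside 3.25% and 3.26% of all genes. With CDDO-Im in WT 15 rose, where 3.65% of all genes were called. With CDDO-Im in CKO 0 were called (1 at an unadjusted p under 0.05), beside 0% (9.47%) of all genes. The 8 hepatocyte markers were all above the signal floor and none was called in any comparison, with summed levels of 18.67 to 18.75 over the 12 livers. Array medians over all tested genes lay within -0.06 and 0.04 of the WT vehicle mean. In whole-liver RNA, fewer cells of a type and less RNA per cell cannot be told apart.

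With Keap1 deleted and no drug given, few proteasome genes passed the test. Psmb5 and Psmd5 rose and no member fell, 2 of 47 (4.26%) where 6.51% of all tested genes were called (3.25% higher and 3.26% lower). Another 4 members, Psmb8, Psmb9, Psmb10 and Psmf1, were at an unadjusted p under 0.05, making 6 of 47 (12.8%) beside 22.2% of all genes. In 7 members every CKO liver was above every WT liver (13% of all genes) and in 6 below (13.3%). Over the 31 constitutive core and 19S subunits the median change was 0.03, against -0.01 for all genes, and the 95% intervals of the 30 that were not called reached from -0.73 to 0.53.

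**Figure D1:**
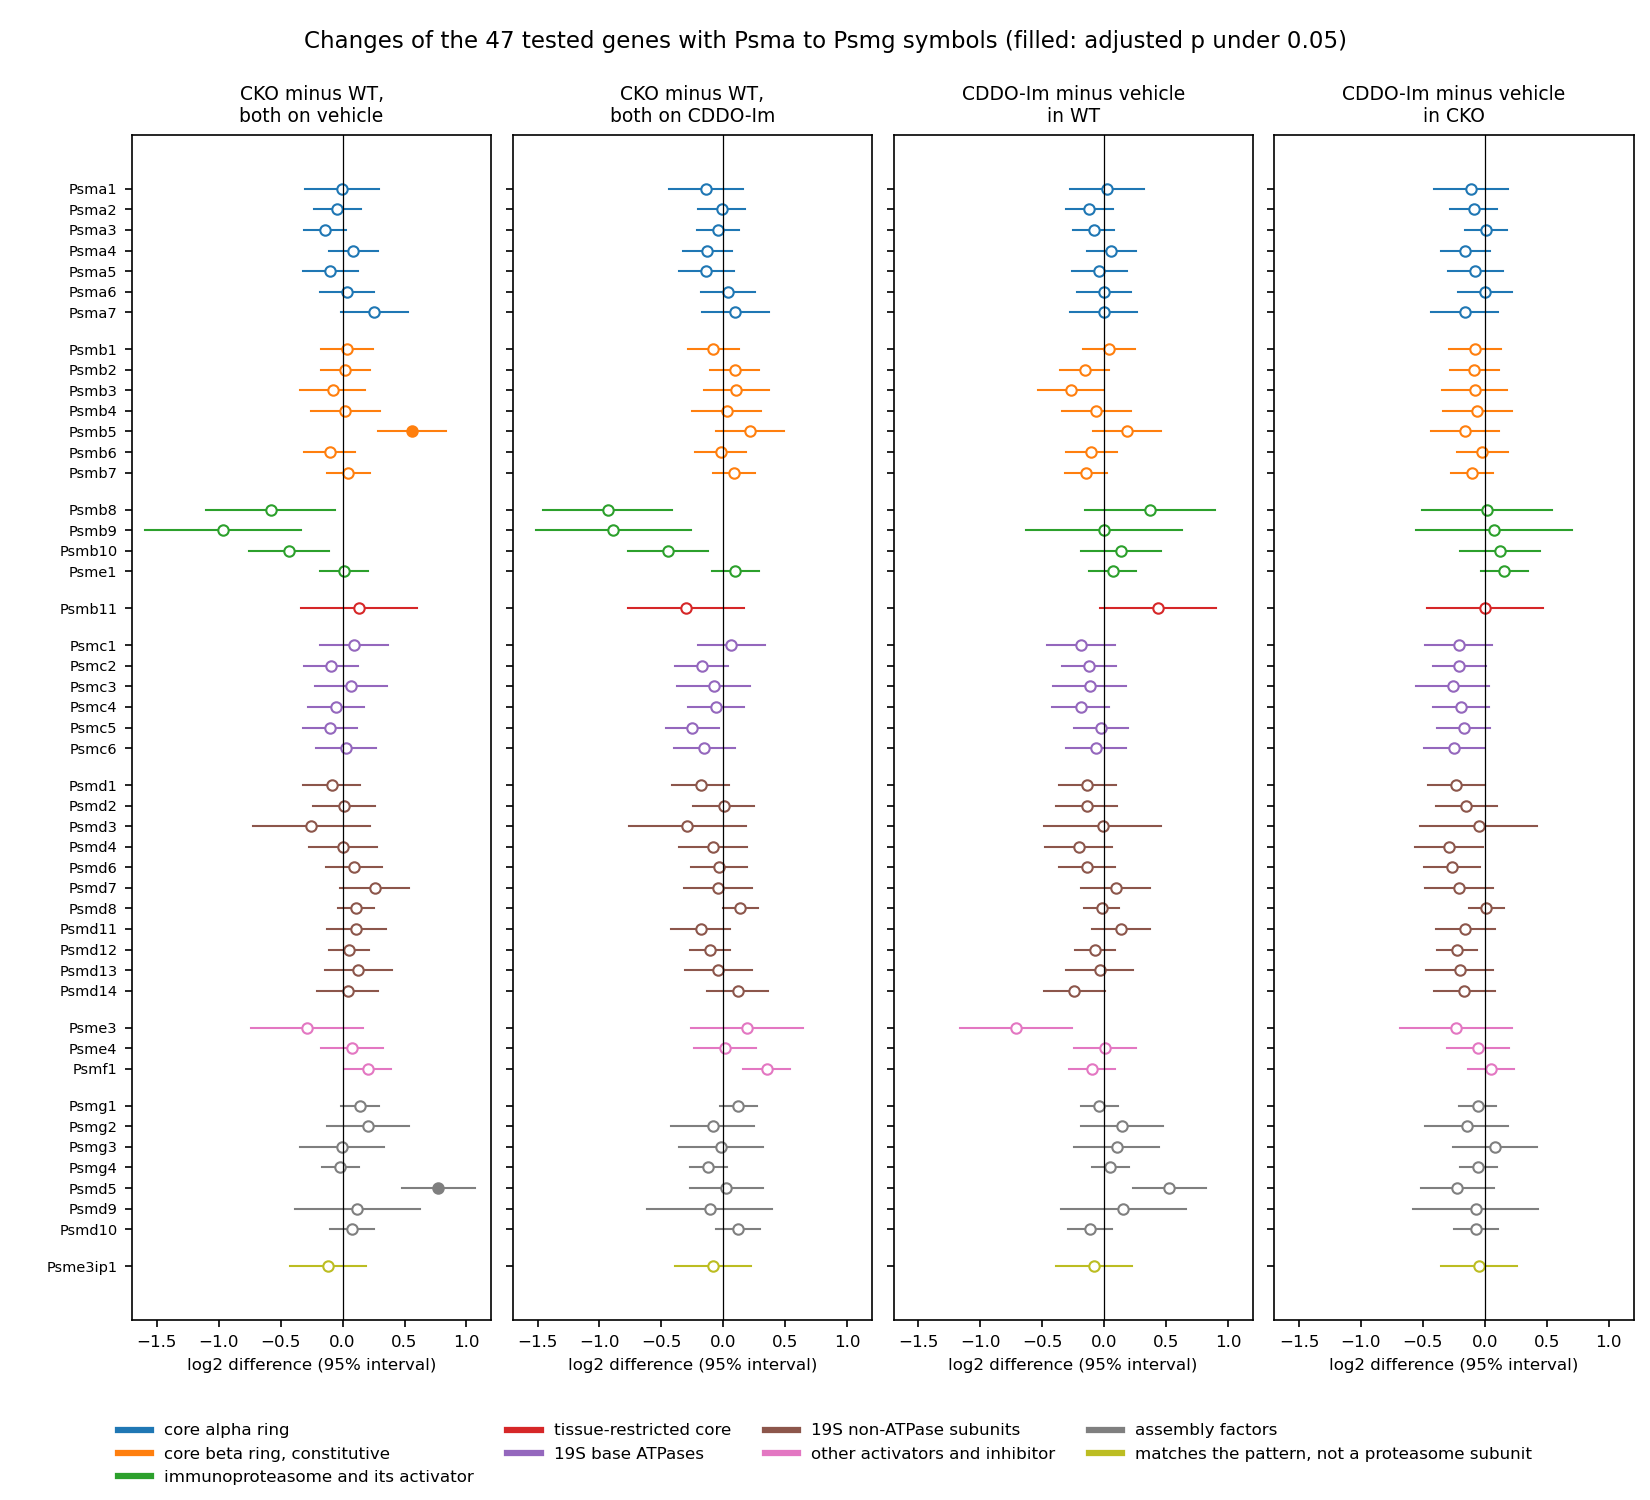
Log2 difference and 95% interval of each of the 47 tested genes (rows, coloured by role) in 4 comparisons (columns), with filled points for an adjusted p under 0.05. Psmb5 and Psmd5 are the only filled points, under Keap1 deletion with vehicle; the intervals of Psmb8, Psmb9 and Psmb10 lie below 0 in both deletion columns.

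Psmb5 carries the chymotrypsin-like site of the core and is the subunit that Psmb8 replaces. Its signal was 12.14, 12.49 and 12.52 (WT) and 13.04, 12.92 and 12.87 (CKO) after vehicle. Every CKO value lay above every WT value. The rise was 0.56 ± 0.12 (1.47-fold, adjusted p = 0.0256). Under CDDO-Im the WT livers read 12.34, 12.70 and 12.65 and the CKO livers 12.70, 12.80 and 12.85. The lowest CKO value was just above the highest WT value, and this difference of 0.22 ± 0.12 was not called (adjusted p = 0.411). The call under vehicle was lost on leaving out WT vehicle replicate 1 (0.43, adjusted p = 0.0732) or CKO vehicle replicate 3 (0.51, adjusted p = 0.0975), replicate 4 (0.57, adjusted p = 0.0543) or replicate 5 (0.59, adjusted p = 0.0505). It was also lost without a filter on low signal (adjusted p = 0.0832) and when only the compared groups were fitted (adjusted p = 0.0884). The same held with the replicate number as a block in the fit.

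The other catalytic subunits of the constitutive core were not called in any comparison. Psmb6, with the caspase-like site, read 11.57, 11.75 and 11.73 (WT) and 11.68, 11.50 and 11.57 (CKO) after vehicle, a change of -0.10 ± 0.09 (95% interval -0.31 to 0.10). It read 11.44, 11.61 and 11.70 in WT and 11.48, 11.66 and 11.54 in CKO livers given CDDO-Im. The genotypes overlapped under both treatments. Psmb7, with the trypsin-like site, read 13.21, 13.40 and 13.31 (WT) and 13.37, 13.29 and 13.40 (CKO) after vehicle, and 13.12, 13.15 and 13.21 (WT) and 13.20, 13.19 and 13.36 (CKO) after the drug. Its genotype changes were 0.05 ± 0.08 under vehicle and 0.09 ± 0.08 under CDDO-Im, neither called. No test compared the change of Psmb5 with those of Psmb6 and Psmb7.

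Of the alpha ring, which includes the gate of the core, 0 of 7 members were called in any comparison, and 0 were at an unadjusted p under 0.05. Under deletion with vehicle the 7 changes ran from -0.14 to 0.26, with 4 of 7 below 0, as were 51.2% of all genes. The 95% intervals of the alpha subunits in that comparison stayed between -0.32 and 0.53. Across the constitutive beta ring, Psmb5 was the only member called in any comparison. Among the remaining beta members an unadjusted p under 0.05 was met by Psmb3 with CDDO-Im in WT (-0.27 ± 0.12, adjusted p = 0.243), by Psmb7 in CKO vehicle against WT CDDO-Im livers (0.19 ± 0.08, adjusted p = 0.173) and by Psmb7 with CDDO-Im averaged over genotypes (-0.13 ± 0.05, adjusted p = 0.244).

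Psmd5, a chaperone that binds ATPases of the 19S base during assembly and leaves the finished particle, was the member with the largest rise. Its signal was 9.75, 9.90 and 9.81 (WT) and 10.62, 10.68 and 10.47 (CKO) after vehicle, so that the groups were well apart. The rise was 0.77 ± 0.13 (1.71-fold, adjusted p = 0.00873), and the call held in all 12 fits that each left out 1 array. It was lost with the replicate number as a block in the fit. WT livers given CDDO-Im read 10.03, 10.50 and 10.50, all above the WT vehicle livers (10.1% of all genes), and CKO livers given CDDO-Im read 10.26, 10.29 and 10.55. The drug's change in WT was 0.52 ± 0.13 (95% interval 0.23 to 0.82) with an adjusted p of 0.0582, just short of a call. It was called on leaving out WT CDDO-Im replicate 2, the lowest of its group (0.68, adjusted p = 0.0133), and with each array centred on its median (0.57, adjusted p = 0.0308). In CKO livers the drug's change was -0.22 ± 0.13 (95% interval -0.52 to 0.07). The difference between the drug's changes in the 2 genotypes, -0.75 ± 0.19, was not called (adjusted p = 0.188, where 0.276% of all genes were called), and Psmd5 was the 1 member of 47 with an unadjusted p under 0.05 for it, beside 10.3% of all genes.

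The other 6 assembly factors were not called in any comparison. Psmg1 and Psmg2 form a heterodimer that starts the alpha ring, Psmg3 and Psmg4 a further one that assists it, and Psmd9 and Psmd10 are, with Psmd5, chaperones of the 19S base. Under deletion with vehicle the 7 assembly factors had a median change of 0.12 and ran from -0.02 to 0.77, with 5 above 0. Psmg1 read 10.30, 10.40 and 10.37 (WT) and 10.48, 10.51 and 10.49 (CKO) after vehicle, and 10.22, 10.39 and 10.34 (WT) and 10.41, 10.51 and 10.40 (CKO) after the drug. All 6 of its CKO values lay above all 6 WT values, by a small margin. That separation held for 3 of 47 members, Psmg1, Psmb5 and Psmf1, beside 2.39% of all genes. The change of Psmg1 averaged over treatments was 0.13 ± 0.05 (adjusted p = 0.114). Psmg1 is described here because of those values.

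**Figure D2:**
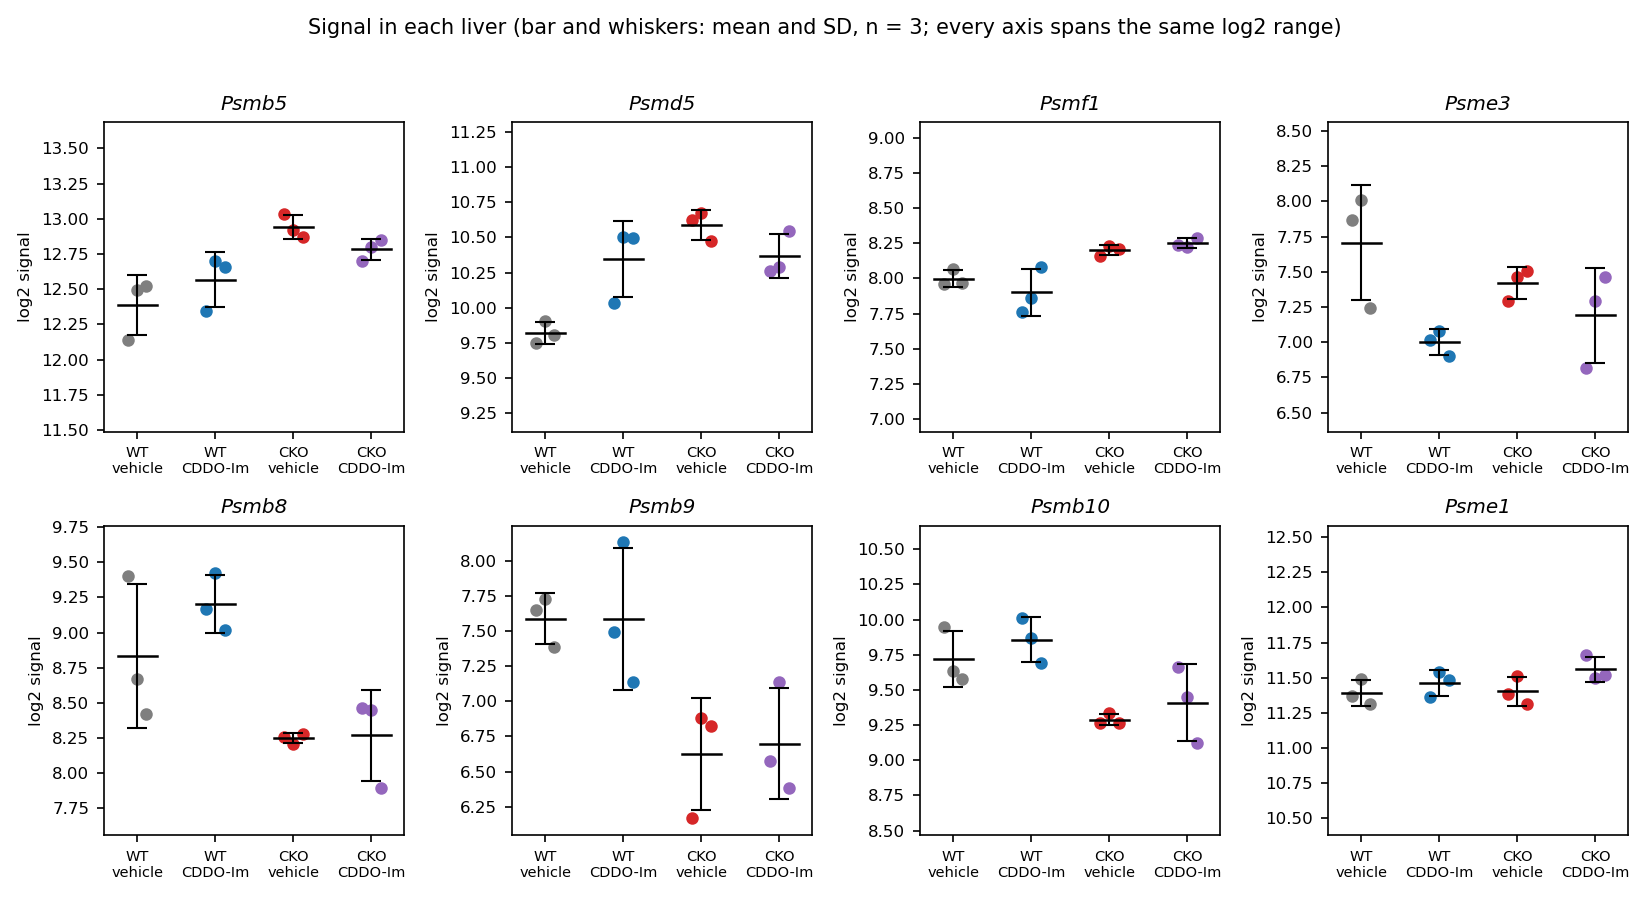
Log2 signal of 8 members in each liver (points) with group mean and SD (bars, n = 3), by genotype and treatment; each axis spans the same log2 range. Psmb5, Psmd5 and Psmf1 are higher in CKO than in WT vehicle livers, and Psmb8, Psmb9 and Psmb10 are lower. Psme1 overlaps between genotypes within each treatment, and the mean of Psme3 is lowest in WT livers given CDDO-Im.

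The inducible catalytic subunits were lower in CKO livers under both treatments. No single pair of groups gave a call, but averaged over vehicle and CDDO-Im, Psmb8, Psmb9 and Psmb10 fell. That averaged comparison uses the same 12 arrays as the separate ones and is not a second experiment. In it 6 of 47 members were called (12.8%), 3 higher and 3 lower, beside 10.6% of all tested genes (5.09% higher and 5.47% lower), and 9 of 47 were at an unadjusted p under 0.05, beside 27%. The share of members is close to that background. The 3 that fell were all 3 inducible catalytic subunits, and those that rose were Psmb5, Psmd5 and Psmf1.

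Psmb8, which replaces Psmb5, read 9.40, 8.67 and 8.42 (WT) and 8.26, 8.21 and 8.28 (CKO) after vehicle, and 9.16, 9.42 and 9.02 (WT) and 8.46, 8.45 and 7.90 (CKO) after the drug. Within each treatment every CKO liver was below every WT liver (12.2% of all genes under CDDO-Im), and WT vehicle replicate 1 stood high in its group. The averaged fall was -0.76 ± 0.17 (1.69-fold lower, adjusted p = 0.0185). Its parts were -0.58 ± 0.24 under vehicle (adjusted p = 0.176) and -0.93 ± 0.24 under CDDO-Im (adjusted p = 0.0823). Without WT vehicle replicate 1 the change under vehicle was -0.29 (adjusted p = 0.422). With the mean over the 2 Psmb8 probe sets, 1 of them at background, the averaged fall was -0.44 (adjusted p = 0.0302).

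Psmb9, which replaces Psmb6, read 7.65, 7.73 and 7.38 (WT) and 6.17, 6.88 and 6.82 (CKO) after vehicle, and 7.49, 8.13 and 7.14 (WT) and 6.57, 7.14 and 6.38 (CKO) after the drug. The genotypes were apart under vehicle and met at 7.14 under CDDO-Im. The averaged fall was -0.92 ± 0.20 (1.90-fold lower, adjusted p = 0.0172). Under vehicle the change was -0.96 ± 0.28 (adjusted p = 0.0718) and under CDDO-Im -0.89 ± 0.28 (adjusted p = 0.157).

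Psmb10, which replaces Psmb7, read 9.95, 9.63 and 9.58 (WT) and 9.27, 9.33 and 9.26 (CKO) after vehicle, and 10.01, 9.87 and 9.69 (WT) and 9.66, 9.45 and 9.12 (CKO) after the drug. CKO livers were below WT livers within each treatment, by the narrowest margin under CDDO-Im. The averaged fall was -0.44 ± 0.10 (1.36-fold lower, adjusted p = 0.0234). It was -0.43 ± 0.14 under vehicle (adjusted p = 0.109) and -0.45 ± 0.14 under CDDO-Im (adjusted p = 0.159).

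Psme1, a subunit of the activator cap, was not called in any comparison. It read 11.37, 11.49 and 11.31 (WT) and 11.38, 11.51 and 11.31 (CKO) after vehicle, and 11.36, 11.54 and 11.48 (WT) and 11.66, 11.50 and 11.52 (CKO) after the drug. Its averaged genotype change was 0.05 ± 0.06 (95% interval -0.08 to 0.19). The interval does not reach the falls measured for the 3 catalytic subunits.

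The averaged calls of Psmb8 and Psmb9 held on leaving out each array in turn, but without both CDDO-Im arrays numbered 2, an alternative chosen after seeing the data, that of Psmb9 was lost (-0.92, adjusted p = 0.0645). That of Psmb10 was lost without WT CDDO-Im replicate 2 (-0.40, adjusted p = 0.0536), WT CDDO-Im replicate 3 (-0.44, adjusted p = 0.0539) or CKO vehicle replicate 3 (-0.43, adjusted p = 0.0546). The rises behaved likewise, with Psmb5 (0.39 ± 0.09, adjusted p = 0.0204) lost without CKO vehicle replicate 3 (0.36, adjusted p = 0.0528). Psmd5 (0.40 ± 0.09, adjusted p = 0.0251) was lost without WT vehicle replicate 1 (0.38, adjusted p = 0.0553), CKO vehicle replicate 3 (0.39, adjusted p = 0.0592), CKO vehicle replicate 4 (0.38, adjusted p = 0.0550) or CKO CDDO-Im replicate 4 (0.35, adjusted p = 0.0541). With no filter on low signal, which adds genes at background to the adjustment, only Psmf1 of the 6 kept its call, and the adjusted p was 0.0777 for Psmb8, 0.0763 for Psmb9, 0.0800 for Psmb10, 0.0659 for Psmb5 and 0.0801 for Psmd5. None of the 6 was called with the replicate number as a block in the fit.

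With CDDO-Im the inducible subunits gave no call. In WT livers the drug's changes were 0.37 ± 0.24 for Psmb8, -0.00 ± 0.28 for Psmb9 and 0.14 ± 0.14 for Psmb10, and none was called. The 95% intervals were -0.15 to 0.90, -0.63 to 0.63 and -0.18 to 0.46. In CKO livers they were 0.02 ± 0.24, 0.07 ± 0.28 and 0.12 ± 0.14, and none was called.

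The direct comparison of CKO vehicle with WT CDDO-Im livers sets lasting genetic activation against acute drug activation. It called 0 of 47 members, with 10 at an unadjusted p under 0.05, beside 4.29% of all genes called and 23% at that p. Psmb8 (-0.95 ± 0.24, adjusted p = 0.0505) and Psmb10 (-0.57 ± 0.14, adjusted p = 0.0539) were just short of a call and Psmb9 (-0.96 ± 0.28) had an adjusted p of 0.0823. All 3 were lower in every CKO vehicle than in every WT CDDO-Im liver, as were 12.5% of all genes. Psmb8 was called in 7 of 11 other settings of the same fit, Psmb10 in 3, and the counts are given in the closing section.

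Genes that work with the immunoproteasome were read alongside it. On mouse chromosome 17 the RefSeq order is H2-DMb1, Psmb9, Tap1, Psmb8 and Tap2, Tap1 and Tap2 together forming the transporter that carries peptides to class I molecules. Tap1 read 7.28, 7.60 and 6.98 (WT) and 5.98, 5.91 and 6.51 (CKO) after vehicle, a change of -1.16 ± 0.46 (adjusted p = 0.171). It read 7.13, 8.47 and 6.88 in WT and 6.88, 7.03 and 5.50 in CKO livers given CDDO-Im, where the genotypes overlapped. Averaged over treatments the change was -1.09 ± 0.33 (adjusted p = 0.0610), and that of Tap2 was -0.20 ± 0.08 (adjusted p = 0.149). Tap2 lay close to the signal floor and read the same 5.53 in all 3 CKO vehicle livers, so its change is not interpreted.

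Of 13 class I presentation genes, 3 fell and 0 rose in the averaged comparison, beside 5.47% and 5.09% of all genes. H2-K1 fell by 0.35 ± 0.06 (adjusted p = 0.00874), H2-D1 by 0.34 ± 0.06 (adjusted p = 0.00688) and H2-Q10 by 0.45 ± 0.08 (adjusted p = 0.00526). Probe sets of these closely related class I genes can share sequence, so the reading of each is uncertain. Under CDDO-Im alone H2-K1 and H2-D1 fell, and under vehicle alone H2-Q10 fell. B2m, the light chain of class I molecules, changed by 0.01 ± 0.04 on average, which was not called.

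Of 17 tested interferon response genes, 12 fell and 0 rose in the averaged comparison and 9 fell under vehicle. Of all tested genes 5.47% fell in the averaged comparison and 3.26% under vehicle. The fall under vehicle was -1.40 ± 0.20 for Irf9 (adjusted p = 0.00345), a part of the interferon-activated transcription complex, and -1.26 ± 0.17 for Irf7 (adjusted p = 0.00256). Under CDDO-Im, where 1.54% of all genes were called, 1 of the 17 fell, Irf9. Leukocytes also carry immunoproteasomes. All 9 leukocyte and antigen presentation markers were bright enough to be tested, with 0 called in any comparison (0 at an unadjusted p under 0.05 for deletion under either treatment), but H2-Ab1 and Coro1a each exceeded the signal floor on only 5 of 12 arrays, and H2-Ab1 on no CKO vehicle array. The markers differed among themselves. Under deletion with vehicle the class II genes and their chaperone read lower, by -0.93 ± 0.48 for Cd74, -1.37 ± 0.62 for H2-Aa, -0.98 ± 0.61 for H2-Ab1 and -0.69 ± 0.45 for H2-Eb1, sizes like those of the inducible subunits, with overlapping groups. The other 5, Ptprc, Laptm5, Coro1a, Cd52 and Tyrobp, lay between 0.04 and 0.40. Under CDDO-Im the same 4 genes gave -0.15 ± 0.48, 0.25 ± 0.62, 0.29 ± 0.61 and -0.07 ± 0.45. The summed level of the 9, set mostly by the brightest of them, was 11.12 to 12.58 in WT vehicle, 11.22 to 12.63 in WT CDDO-Im, 10.95 to 11.53 in CKO vehicle and 11.48 to 12.33 in CKO CDDO-Im livers. The CKO vehicle range is the lowest, and it overlaps all the others. Of 9 measured lymphocyte markers only Ighm was above the floor, and Cd3d, Cd3e, Cd79a and Cd79b were among those below it. Elsewhere among the cell type markers, Marco of macrophages (adjusted p = 0.0151) and Lyve1 of endothelium (adjusted p = 0.0177) rose under deletion with vehicle. Marco read 5.70, 3.95 and 4.95 in WT vehicle livers, around the floor. Of the other endothelial markers above the floor, Kdr, Stab2 and Clec4g had lower means in CKO than in WT vehicle livers. That of Eng was slightly higher. Cdh5 read the same 6.13 in all 3 WT vehicle livers and is not interpreted. Summed macrophage marker levels were 13.01 to 13.95 in WT and 13.37 to 13.97 in CKO vehicle livers. Summed endothelial levels were 11.67 to 11.88 and 11.68 to 11.76, so both overlapped. The part of leukocyte RNA or of interferon signalling in the change of Psmb8, Psmb9 and Psmb10 was not tested.

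**Figure D3:**
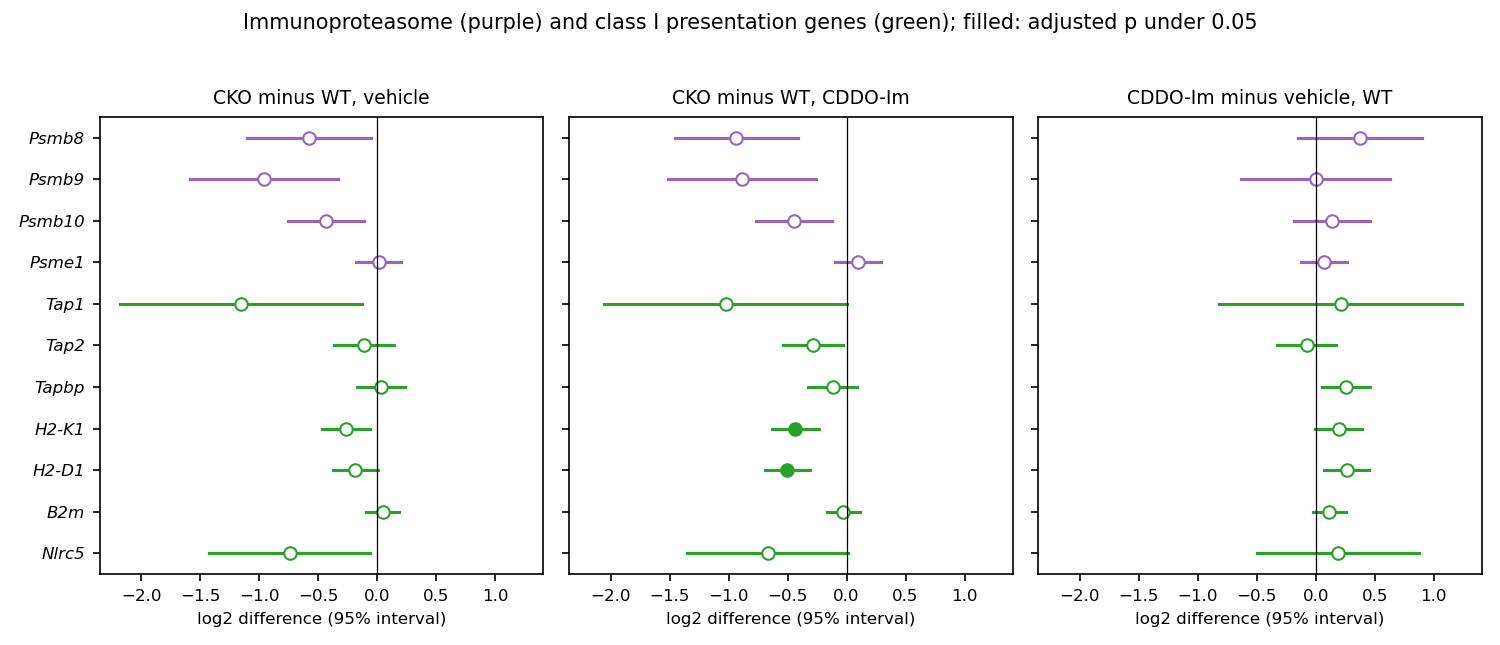
Log2 difference and 95% interval of 4 immunoproteasome genes (purple) and 7 class I presentation genes (green) for CKO minus WT under vehicle, CKO minus WT under CDDO-Im and CDDO-Im minus vehicle in WT, on a common axis; filled points have an adjusted p under 0.05. Psmb8, Psmb9, Psmb10 and Tap1 lie left of 0 in both deletion panels; in the drug panel Psmb9 lies at 0 and the other 3 to its right, all with intervals that include 0, while Psme1 and B2m sit near 0 in the deletion panels.

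The 19S regulator recognises ubiquitin chains through subunits such as Psmd4, removes them through the protease Psmd14 and drives unfolding with the ATPases Psmc1 to Psmc6. None of its 17 subunits was called in any of the 8 comparisons. Under Keap1 deletion with vehicle 0 of 17 were at an unadjusted p under 0.05, the median change was 0.04 and the changes ran from -0.25 to 0.26. Under deletion with CDDO-Im, where 1.54% of all genes were called and 0 of 47 members (5 at an unadjusted p under 0.05, beside 16.8% of all genes), 13 of the 17 were below 0 (51.7% of all genes), with a median of -0.08.

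With CDDO-Im the 19S subunits were mostly slightly below vehicle. In WT livers, where 3.65% of all genes were called and 0 of 47 members (3 at an unadjusted p under 0.05, beside 19.6% of all genes), 15 of 17 19S changes were below 0 (55.1% of all genes), with a median of -0.12. In CKO livers, where 0% of all genes were called (9.47% at an unadjusted p under 0.05), 16 of 17 were below 0, with a median of -0.20, against 56.2% of all genes below 0 and a median of -0.02. In 9 of the 17, every CKO liver given the drug was below every CKO vehicle liver, which held for 9.4% of all genes. These differences are small and none passed the test, 4 of the 17 having an unadjusted p under 0.05.

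Those 4 were Psmd12, Psmd6, Psmd4 and Psmc6. Psmd12, a scaffold subunit, read 11.75, 11.81 and 11.83 after vehicle and 11.55, 11.55 and 11.61 after the drug in CKO livers, a difference of -0.23 ± 0.07 (adjusted p = 0.427). Psmd4, a ubiquitin receptor, read 12.13, 11.97 and 12.14 and then 11.66, 11.91 and 11.80, a difference of -0.29 ± 0.12 (adjusted p = 0.515). The groups did not overlap for either gene. In WT livers Psmd12 read 11.74, 11.75 and 11.75 with vehicle and 11.55, 11.67 and 11.80 with the drug, which overlapped.

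Averaged over genotypes, a comparison that called 0 of 47 members (10 at an unadjusted p under 0.05, beside 19% of all genes) and 2.46% of all genes, all 17 19S changes were below 0. Their median was -0.16, against -0.02 for all genes, of which 57% were below 0. It was -0.12 after centring each array on its median and -0.14 after quantile normalization. The 14 constitutive core subunits had 12 changes below 0 and a median of -0.06. No test compared the 19S regulator with the core.

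The low 19S readings were uneven over the drug's arrays. Relative to the WT vehicle mean, the 19S median was -0.33 in WT CDDO-Im replicate 2 and -0.31 in CKO CDDO-Im replicate 2. It was -0.07 and 0.06 in the other WT livers and -0.13 and -0.10 in the other CKO livers given the drug. The 6 vehicle livers lay between -0.05 and 0.07. In a fit without both arrays numbered 2, chosen after these medians were seen, 14 of 17 changes were below 0 averaged over genotypes, with a median of -0.08. There 10 of 17 were below 0 in WT, with a median of -0.03, and 16 of 17 in CKO, with a median of -0.15. The part of these 2 arrays in the low readings beyond those values was not tested.

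**Figure D4:**
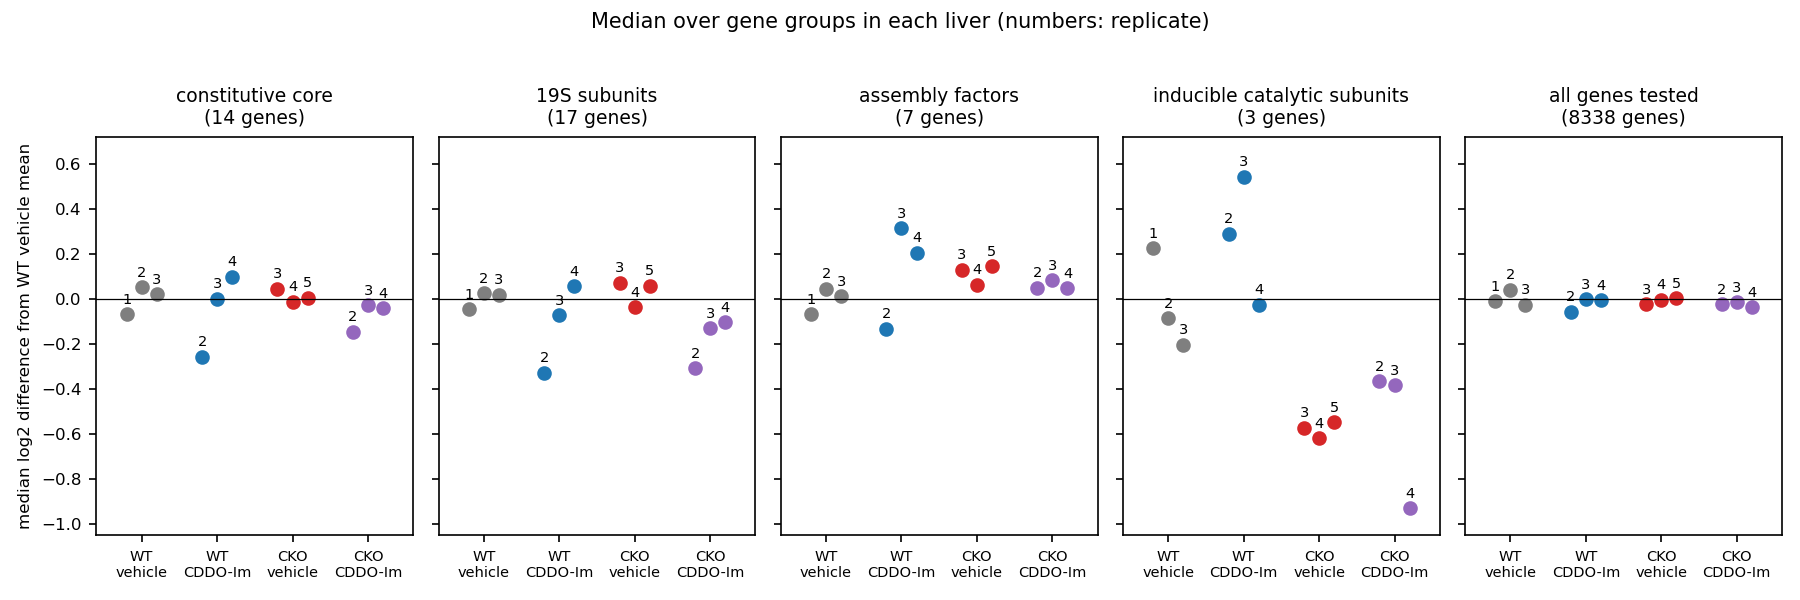
Median log2 difference from the WT vehicle mean over 5 gene groups (panels) in each of 12 livers (points, with the replicate number above each). The 19S and core medians are lowest in the CDDO-Im arrays numbered 2, the inducible subunits are lower in all 6 CKO livers than in all 6 WT livers, and the median of all tested genes stays near 0.

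The remaining regulators were Psmf1, Psme3 and Psme4. Psmf1, an inhibitor of the core in vitro also known as PI31, read 7.96, 8.07 and 7.97 (WT) and 8.16, 8.23 and 8.21 (CKO) after vehicle, and 7.76, 7.86 and 8.08 (WT) and 8.24, 8.22 and 8.29 (CKO) after the drug. All 6 CKO values were above all 6 WT values, which held for 2.39% of all genes. The averaged rise was 0.28 ± 0.06 (1.21-fold, adjusted p = 0.0175), with 0.20 ± 0.08 under vehicle (adjusted p = 0.191) and 0.35 ± 0.08 under CDDO-Im (adjusted p = 0.0778). The rise rests on the brightest of 3 Psmf1 probe sets above the floor. The other 2 changed by 0.05 each (adjusted p = 0.812 and 0.821), and the mean over the gene's probe sets by 0.09 (adjusted p = 0.462). The call was also lost without both CDDO-Im arrays numbered 2 (0.24, adjusted p = 0.0544).

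Psme3, the subunit of a nuclear activator of the core, read 7.87, 8.01 and 7.24 after vehicle and 7.01, 7.08 and 6.90 after the drug in WT livers. Each drug value was below each vehicle value, as for 13.1% of all genes. The change of -0.71 ± 0.20 was not called (adjusted p = 0.0885), and its 95% interval was -1.16 to -0.26. It was called without WT vehicle replicate 3, the lowest of its group (-0.94, adjusted p = 0.0244). A second probe set of Psme3 gave -0.43 (adjusted p = 0.0818). CKO livers read 7.30, 7.46 and 7.51 with vehicle and 6.81, 7.29 and 7.46 with the drug, which overlapped, a difference of -0.23 ± 0.20. Psme4, another activator, had no call in any comparison.

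Psmb11, the core subunit of thymic epithelium, passed the filter with the same value on most arrays, 5.24 on 10 of 12, and its changes are not interpreted. Psme3ip1, which is no subunit, was not called in any comparison.

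Of 19 tested partners outside the symbol pattern, 2 rose and 0 fell under deletion with vehicle, beside 3.25% and 3.26% of all genes. Ubqln2, a shuttle that brings ubiquitin-tagged proteins to the proteasome, read 10.51, 10.61 and 10.63 in WT and 11.28, 11.02 and 11.28 in CKO vehicle livers, a rise of 0.61 ± 0.12 (1.53-fold, adjusted p = 0.0143). Zfand5, a proteasome-binding zinc finger protein, read 11.14, 11.03 and 11.12 and then 11.62, 11.26 and 11.72, a rise of 0.44 ± 0.11 (1.35-fold, adjusted p = 0.0465). The groups did not overlap for either, as for 13% of all genes in that direction. Ubqln2 was also called when averaged over treatments (0.43 ± 0.08, adjusted p = 0.0116). The calls of Ubqln2 and Zfand5 were not examined in the alternative settings, and that of Zfand5 lay close to the threshold. With CDDO-Im in WT none of the 19 was called, and 3 were at an unadjusted p under 0.05, beside 19.6% of all genes. Both tested genes of the ubiquitin supply list were without a call in every comparison.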

How the data were processed

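Total liver RNA from 12 mice was hybridised to Affymetrix mouse arrays. Deposited values are log2 signals. Per the submitters' processing notes the tools were GCRMA 2.12.1 and R 2.7.0, with settings not given in the sources used here. GCRMA corrects background by probe sequence, normalizes between arrays and summarises probe sets, so dim genes gather at a floor and their changes depend on the background model. The number of arrays limits the precision. Each p-value sets a difference between group means against the spread between mice within groups. That spread is pooled over the 4 groups and drawn toward a value common to all genes.

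Genes were named from the platform annotation, using the brightest of the probe sets that name 1 gene, for 18193 genes. Testing required a signal over log2 5 on 3 or more arrays. Using limma 3.58.1 (R 4.3.3), 1 model with 4 group means was fitted over the 12 arrays (8 residual and 2.32 prior degrees of freedom), giving 8 comparisons with two-sided p-values adjusted by Benjamini-Hochberg over 8338 genes. The script was tested on simulated data. Members and gene lists were chosen with earlier results of these data known, and the lists come from general knowledge. Values per liver are given for the immunoproteasome members, their constitutive partners and, in each comparison, up to 5 called members in each direction; other members named were picked after their values were seen. Of the 49 members, 27 had over 1 probe set, 17 of them with over 1 above the floor. Alternatives were the normalization, filter, probe set rule, variance model, groups in the fit, a replicate block, repeated values and leaving out each array. They were examined for members only, so the calls of class I, interferon, partner, reference and marker genes were not checked in them. Replicate numbers were not treated as pairs: over 12 same-numbered pairs the correlations of deviations ran from -0.17 to 0.15, with 3 over 0.1. Those 3 all set WT against CKO under the same treatment, vehicle replicate 3 (0.14) and CDDO-Im replicates 2 (0.13) and 4 (0.15). CDDO-Im replicate 3 gave 0.08. Whether equal numbers within a treatment mark mice handled together was not tested. RefSeq promoter entries matched 41 of 49 members.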

Additional observations from a re-analysis of the deposited data

How the results depend on the processing

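Precision is limited by the 3 mice in each group, and the adjusted p-values of called members ran from 0.00873 to 0.0256. Of the counts of called members, those for CDDO-Im in CKO and for the interaction stayed at 0 in every alternative. Under deletion with vehicle the 2 calls became 1 with no filter on low signal and 1 with only the compared groups fitted, and leaving out 1 array gave 1 to 2. For CDDO-Im in WT the 0 calls became 1, Psmd5, with median centring, quantile normalization, the mean over probe sets, a trended robust variance and, in an alternative chosen after seeing the data, without both CDDO-Im arrays numbered 2; leaving out 1 array gave 0 to 1. Median centring there moved the calls over all genes from 157 higher and 147 lower to 228 and 121. For deletion under CDDO-Im the 0 calls became 1, Psmf1, with median centring, and leaving out 1 array gave 0 to 1. For CKO vehicle against WT CDDO-Im the 0 calls became 1 (Psmb8) with median centring, with all 12 arrays required above log2 5, with repeated values left out and with only the compared groups, and 2 (Psmb8 and Psmb10) with quantile normalization, the mean over probe sets and a trended robust variance; leaving out 1 array gave 0 to 2. For deletion averaged over treatments the 6 calls became 1 with no filter, and leaving out 1 array gave 3 to 6, 3 without CKO vehicle replicate 3. Without both CDDO-Im arrays numbered 2 it gave 4, losing Psmb9 (adjusted p = 0.0645) and Psmf1 (adjusted p = 0.0544). For CDDO-Im averaged over genotypes leaving out 1 array gave 0 to 1. The change of Psmf1 under deletion with vehicle turned to -0.026 (adjusted p = 0.912) with the mean over its probe sets, which read differently. The cause of the other shifts was not tested. With the replicate number as a block, 0 members were called under deletion with vehicle and 0 when averaged over treatments. Over all genes the calls under vehicle then went from 271 higher and 272 lower to 34 and 21. Whether equal numbers mark mice handled together was not tested.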
